A study of Mus musculus with 4 samples.

Results

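Glycolysis and its pentose phosphate branch were described in cDNT cells by following 37 genes: the carriers of glucose and lactate, the glycolytic isoenzymes, the pyruvate dehydrogenase kinases and the pentose phosphate enzymes. These genes were chosen by symbol for their place in the pathway, with earlier results of these data known. The deposited table has rows for 32 of the 37, out of 24768 genes in all, 25 of them in glycolysis and its carriers and 7 in the pentose phosphate branch. Gpi1, Aldoc, Pgk1, Slc16a3 and Pdk4 matched no row and are not analysed here. The libraries came from mouse T cells, and the labels name wild-type (WT) cDNT and Tbx21-KO cDNT, 2 libraries of each. The Tbx21 product is T-bet, which directs the type 1 programme of lymphocytes. In the design text the Tbx21-KO cells appear as a knockdown, not a knockout. The labels give no age, strain, culture condition, allele or promoter, and they do not spell out the "c" of cDNT.

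Glycolysis breaks glucose down to pyruvate in the cytosol, and activated T cells run it fast and export much of the product as lactate. Glucose enters through carriers of the Slc2a family, is trapped by hexokinases, and is committed to the pathway by phosphofructokinase. Glucose 6-phosphate can instead enter the pentose phosphate branch, whose oxidative arm makes NADPH and whose non-oxidative arm interconverts sugars for nucleotide synthesis. Neutrophils are known for a high use of this branch, since their NADPH oxidase consumes NADPH.

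In Tbx21-KO the pentose phosphate enzymes were higher. The glucose carrier Slc2a1, the lactate carrier Slc16a1 and the lactate dehydrogenase subunit gene Ldha were lower. Ldha was not lower when each library was scaled to a list of 20 T cell marker genes. Of 7 pentose phosphate genes 6 rose and none fell, led by G6pdx and Pgd at 1.89-fold and 1.83-fold of WT. Of 24 tested genes of glycolysis and its carriers 10 rose, 7 fell and 7 were not called. Beside these counts, 30.1% of all genes tested rose and 23.0% fell. Hk3, Pfkfb4 and Pdk2, among the 10, were under 1 FPKM in WT and could be tested only through their Tbx21-KO level. Of the other 21 genes 7 rose and 7 fell, beside 25.5% and 24.5% of all genes with a WT mean of at least 1 FPKM. The largest rises were those of isoenzymes that were scarce in WT: Hk3, Pfkfb4 and Slc2a6. Among the abundant enzymes from aldolase to pyruvate kinase, Eno1 and Tpi1 fell slightly, and Aldoa, Pkm, Pgam1 and Gapdh were not called. When each library was scaled to that T cell list, all of these were called higher, as were 68.6% of all genes.

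Values are FPKM, that is fragments relative to the length of the gene and the size of the library, and the values of libraries 1 and 2 of a group are given in that order. A gene was tested where its mean over the 4 libraries was at least 1 FPKM, with limma on log2(FPKM + 1), and it is called higher or lower where the Benjamini-Hochberg adjusted p over all 11013 genes tested was under 0.05. Fold changes on the log2 scale are Tbx21-KO minus WT and understate the change of low genes. Of all genes tested 53.1% were called, 30.1% higher and 23.0% lower, so single calls were common in this comparison. Of the 32 members 31 were tested, of which 16 rose and 7 fell, with a median log2 fold change of 0.16 against 0.04 over all genes tested. Among these 31, 3 (Hk3, Pfkfb4 and Pdk2) were under 1 FPKM in WT and passed the minimum through the Tbx21-KO libraries, so they had to be higher. Eno2, with means of 0.282 and 1.58 FPKM, did not reach the minimum and was not tested. Of the other 28 members 13 rose and 7 fell, with 25.5% higher and 24.5% lower among all genes with a WT mean of at least 1 FPKM. Of the 31 tested members, 17 had both Tbx21-KO values above both WT values and 11 had both below, beside 43.7% and 35.3% of all genes tested.

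Tbx21 was at 13.2 and 11.7 FPKM in the WT libraries against 2.29 and 2.41 FPKM in the Tbx21-KO libraries. The low values of a library are whole multiples of what 1 read is worth, and they imply totals of 23342603 to 24967028 reads, though the sequencing may have been deeper. The 2 Tbx21-KO libraries also stood apart in transcripts that serve as markers of other cell types. All 17 granulocyte markers were higher there, with a summed level of 11.2 to 14.3 FPKM in WT and 10691 to 11003 FPKM in Tbx21-KO, and S100a9 alone was at 3856 and 4068 FPKM. All 8 tested macrophage and monocyte markers were higher, with the whole list of 11 at 209 to 211 FPKM in WT and 533 to 566 FPKM in Tbx21-KO. Most of the WT sum was Ly6c2, at 164 and 162 FPKM in WT and 183 and 192 FPKM in Tbx21-KO. Lyz2 was at 3.26 and 207 FPKM on average. Of 6 tested mast cell and basophil markers 4 were higher and 1 lower, and the 7 with a row summed to 25.5 to 27.5 FPKM in WT and 369 to 376 FPKM in Tbx21-KO, with Mcpt4 at 0 in both WT libraries. Both tested B cell markers were higher, with 6 genes at 39.1 to 41.2 FPKM in WT and 71.96 to 75.8 FPKM in Tbx21-KO, and 8 erythroid and platelet markers summed to 1.13 to 1.4999 FPKM in WT and 9.64 to 9.91 FPKM in Tbx21-KO. Of the tested markers of these other cells, 12 granulocyte, 2 macrophage and monocyte and 2 mast cell and basophil genes passed the minimum through the Tbx21-KO libraries. So did the 2 tested genes of the erythroid and platelet list, Ppbp and Itga2b. All these genes had to have a higher mean in Tbx21-KO than in WT, though Cma1 of the mast cell list was not called. A T cell list of 20 genes held receptor chains and also signalling and surface genes such as Lcp2, Ptprc, Thy1 and Cd28. Of these 20 genes 14 were lower and 2 higher, with a summed level of 2189 to 2294 FPKM in WT and 1585 to 1619 FPKM in Tbx21-KO. They did not move alike, from Cd28 at 35.3% of WT to Cd5 at 155.3%. The defining T cell gene Cd3e was present in every library, at 57.2 and 56.1 FPKM in WT and 40.2 and 39.8 FPKM in Tbx21-KO. Whether other cells were present or the cDNT cells made these transcripts themselves cannot be told from bulk RNA. Whichever holds, its part in the changes below was not tested. Fewer cells of a type and less RNA per cell cannot be told apart in such RNA either. For this reason members are also given with a "T cell reference scaling". Each library was divided by its geometric mean over the 20 genes of the T cell list, so the scaled values depend on that list. This scaling brought the median log2 fold change of all genes from 0.04 to 0.40. Under it 68.6% of all genes were higher and 5.58% lower, and among the members 27 were higher and 2 lower.

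The bases before the annotated starts of 5 genes on which the results turn are shown because hypoxia-inducible factor and Myc, classical activators of glycolytic genes, bind short motifs there. Each line holds the 250 bases before a start of RefSeq's GRCm38.p6 annotation, 5′ to 3′ on the gene's strand. Capitals mark the letters ACGTG or GCGTG, the core of a hypoxia response element, on either strand; the E-box CACGTG, to which Myc binds, contains ACGTG.
Slc2a1 (chr4:119108495-119108744, plus strand): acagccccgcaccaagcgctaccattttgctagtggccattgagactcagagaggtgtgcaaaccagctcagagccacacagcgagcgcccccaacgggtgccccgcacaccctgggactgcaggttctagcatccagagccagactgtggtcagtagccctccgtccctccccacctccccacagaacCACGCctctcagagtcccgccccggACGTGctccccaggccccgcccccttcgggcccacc
Slc16a1 (chr3:104638414-104638663, plus strand): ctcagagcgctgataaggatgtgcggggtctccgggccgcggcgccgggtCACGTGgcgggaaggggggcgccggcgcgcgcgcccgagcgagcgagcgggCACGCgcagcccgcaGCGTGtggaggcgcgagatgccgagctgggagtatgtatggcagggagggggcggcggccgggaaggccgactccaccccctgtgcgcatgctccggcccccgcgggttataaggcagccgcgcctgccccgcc
Ldha, first of 2 starts (chr7:46845554-46845803, plus strand): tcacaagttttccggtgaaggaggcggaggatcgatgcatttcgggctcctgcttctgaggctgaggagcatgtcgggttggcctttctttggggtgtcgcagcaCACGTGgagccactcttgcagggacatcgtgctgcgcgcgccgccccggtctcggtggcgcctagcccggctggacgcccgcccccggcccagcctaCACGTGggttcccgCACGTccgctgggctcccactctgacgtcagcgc
G6pdx (chrX:74428881-74429130, minus strand): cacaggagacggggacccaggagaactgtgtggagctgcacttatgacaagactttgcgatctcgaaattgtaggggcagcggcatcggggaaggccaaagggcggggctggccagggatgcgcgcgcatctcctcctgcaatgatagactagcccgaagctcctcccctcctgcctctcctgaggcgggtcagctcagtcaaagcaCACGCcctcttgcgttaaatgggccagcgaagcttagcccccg
Hk3 (chr13:55021386-55021635, minus strand): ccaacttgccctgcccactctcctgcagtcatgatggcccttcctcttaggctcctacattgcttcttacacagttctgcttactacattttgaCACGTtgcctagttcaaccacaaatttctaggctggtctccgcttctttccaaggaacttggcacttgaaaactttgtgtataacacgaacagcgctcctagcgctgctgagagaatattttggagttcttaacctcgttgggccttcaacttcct

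The Ldha window holds 5 matches counted over both strands, that of Slc16a1 4, that of Slc2a1 2, and those of G6pdx and Hk3 1 each. An E-box reads the same on both strands and so counts as 2 matches. E-boxes were found in the windows of Ldha and Slc16a1 among these 5. The window of the second Ldha start, not shown, held none. The table of promoters matched 31 of the 32 members by symbol, with 45 windows, and Slc2a3 had no entry. ACGTG or GCGTG was present in 35 of the 45 windows, which is 77.8%, against 56.6% of the 9917 windows of genes tested here and 38.6% of all 32851 windows. Where starts of a gene lie close together, as for Eno1, Aldoa and Pfkm, windows overlap and the same letters are counted again. By direction, 17 of 22 windows of members that rose, 9 of 11 windows of members that fell and 9 of 11 windows of members not called held it. CACGTG was present in 5 of the 45 windows, or 11.1%, against 8.37% of the windows of genes tested. It was in 3 of 22 windows of members that rose (Pfkfb3, Pdk2 and Pfkm). Of the windows of members that fell 2 of 11 held it, and of those of members not called 0 of 11. Such a match is a description of the letters and shows no bound factor.

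**Figure D1:**
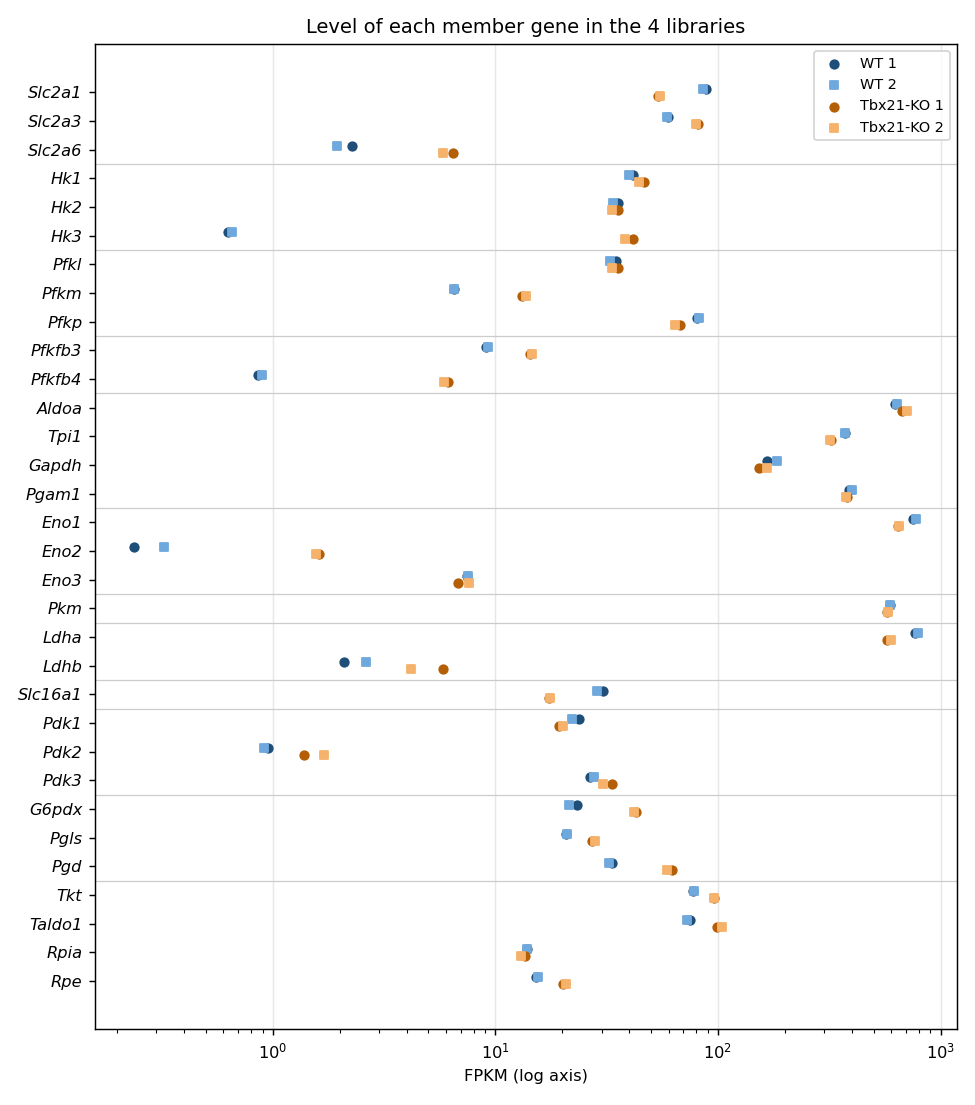
FPKM of each of the 32 members (log axis, rows grouped by role) in the 2 WT libraries (blue) and the 2 Tbx21-KO libraries (orange), 1 point per library. Replicates lie close together, Hk3 is separated furthest, from 0.64 FPKM in WT to 39.9 FPKM in Tbx21-KO on average, and the pentose phosphate genes at the bottom, except Rpia, lie to the right in Tbx21-KO.

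Among the glucose carriers, Slc2a1 fell and Slc2a3 rose. Slc2a1 (ENSMUSG00000028645, GRCm38 chromosome 4, 119108711 to 119137983, plus strand) encodes GLUT1, the main glucose carrier of activated T cells, and was at 88.5 and 85.9 FPKM in the WT libraries against 54.01 and 54.8 FPKM in the Tbx21-KO libraries. Both Tbx21-KO values lay below both WT values, and the gene fell to 62.4% of WT, with a log2 fold change -0.67 (SE 0.04, limma adjusted p = 0.000248). Slc2a3 (ENSMUSG00000003153, GRCm38 chromosome 6, 122727809 to 122801640, minus strand) encodes GLUT3, a carrier with high affinity for glucose that lymphocytes and granulocytes both use, and was at 59.7 and 58.9 FPKM in the WT libraries against 80.997 and 80.1 FPKM in the Tbx21-KO libraries. It rose 1.36-fold, with a log2 fold change 0.44 (SE 0.04, limma adjusted p = 0.000702), and the groups did not overlap. Slc2a6, which encodes GLUT6, was at 2.27 and 1.94 FPKM in the WT libraries against 6.47 and 5.84 FPKM in the Tbx21-KO libraries and rose 2.93-fold (log2 fold change 1.21).

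The summed level of the 3 carriers differed little, at 150.4 and 147 FPKM in the WT libraries against 141 and 141 FPKM in the Tbx21-KO libraries, while its make-up shifted. The Slc2a1 share of that sum was 58.8% and 58.5% in the WT libraries against 38.2% and 38.95% in the Tbx21-KO libraries. The share of Slc2a3 was 39.7% and 40.1% in the WT libraries against 57.3% and 56.9% in the Tbx21-KO libraries. Multiplying a library by any factor leaves these shares as they are, but which carrier leads depends on the gene length used. By FPKM over summed exons Slc2a1 led in WT and Slc2a3 in Tbx21-KO. Per kilobase of principal transcript Slc2a3 led in both groups, at 108 against 93.7 for Slc2a1 in WT and 147 against 58.5 in Tbx21-KO. Shares within the other families below rest on the same summed exon lengths. Slc2a1 stayed lower with the T cell reference scaling, at -0.26, and Slc2a3 stayed higher, at 0.85.

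Hexokinases phosphorylate glucose and so keep it in the cell. Hk2 (ENSMUSG00000000628, GRCm38 chromosome 6, 82725025 to 82774454, minus strand), the inducible hexokinase of activated T cells, was at 35.6 and 33.9 FPKM in the WT libraries against 35.5 and 33.4 FPKM in the Tbx21-KO libraries. The groups overlapped and the gene was not called (log2 fold change -0.01 (SE 0.05, limma adjusted p = 0.851)). With the T cell reference scaling it was called higher, at 0.39. Hk1, the hexokinase found in most tissues, was at 41.7 and 39.8 FPKM in the WT libraries against 46.7 and 44.3 FPKM in the Tbx21-KO libraries and rose 1.12-fold (log2 fold change 0.16 (SE 0.05, limma adjusted p = 0.047)), a call lost in 6 of 15 other fits.

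Hk3 (ENSMUSG00000025877, GRCm38 chromosome 13, 55005985 to 55021385, minus strand), the hexokinase of myeloid cells, was at 0.631 and 0.653 FPKM in the WT libraries against 41.6 and 38.2 FPKM in the Tbx21-KO libraries. These values correspond to 58 reads in each WT library and to 3573 and 3380 reads in Tbx21-KO, a 62.1-fold rise, with a log2 fold change 4.64 (SE 0.06, limma adjusted p = 6.42e-06). It passed the minimum through the Tbx21-KO libraries. The share of Hk3 in the summed hexokinase level was 0.809% and 0.878% in the WT libraries against 33.6% and 32.95% in the Tbx21-KO libraries, and the sum itself was 77.97 and 74.4 FPKM in the WT libraries against 124 and 116 FPKM in the Tbx21-KO libraries. Most of the difference in the sum was Hk3 transcript. It rose in the libraries in which the granulocyte markers summed to 10691 and 11003 FPKM.

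**Figure D2:**
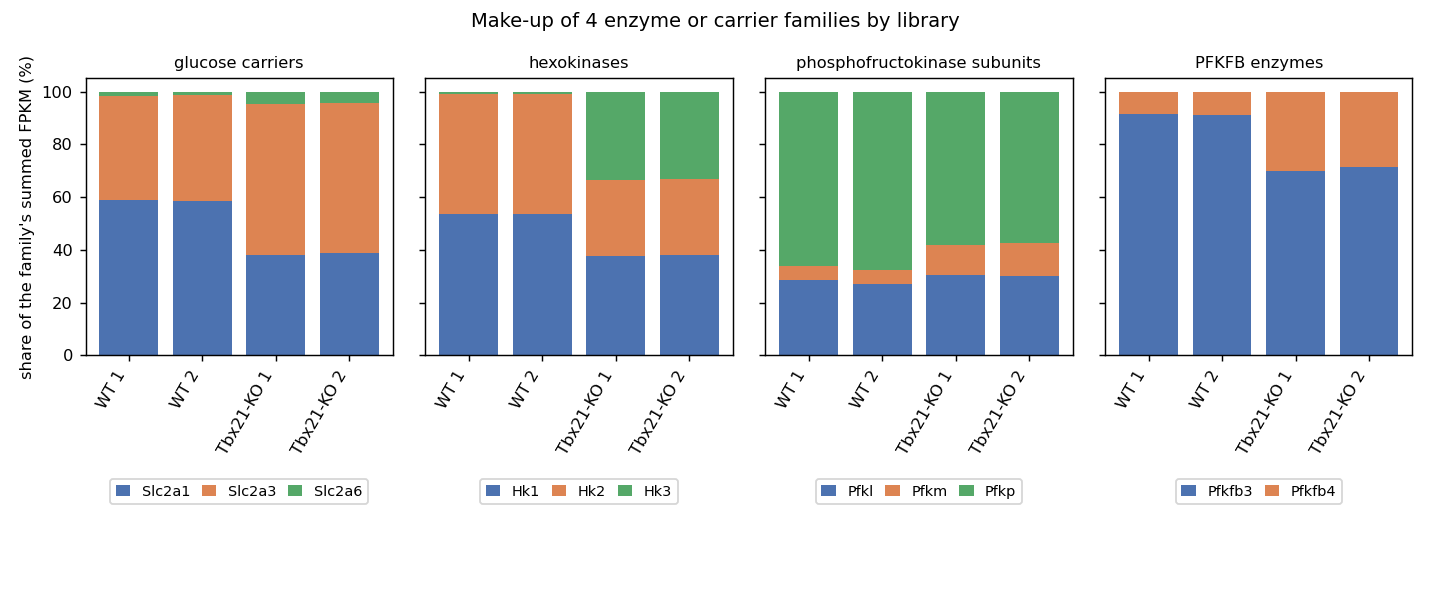
Share of each gene in the summed FPKM of its family (stacked bars, in percent) in each of the 4 libraries, for glucose carriers, hexokinases, phosphofructokinase subunits and PFKFB enzymes. The 2 libraries of a group look alike, Hk3 makes up 33.6% and 32.95% of the hexokinase sum in the Tbx21-KO libraries and under 1% in WT, and the Slc2a3 share of the carriers is larger there than in WT.

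Phosphofructokinase is built from the subunits encoded by Pfkl, Pfkm and Pfkp, and its activity is raised by fructose 2,6-bisphosphate, which the PFKFB enzymes make and remove. Pfkp (ENSMUSG00000021196, GRCm38 chromosome 13, 6579768 to 6648777, minus strand), the leading subunit gene here, was at 80.7 and 82.3 FPKM in the WT libraries against 67.6 and 63.9 FPKM in the Tbx21-KO libraries and fell to 80.7% of WT (log2 fold change -0.31 (SE 0.04, limma adjusted p = 0.00431)). With the T cell reference scaling this turned to 0.10 and was not called. Pfkm, the subunit that muscle uses, was at 6.52 and 6.503 FPKM in the WT libraries against 13.1 and 13.8 FPKM in the Tbx21-KO libraries and rose 2.07-fold (log2 fold change 0.94 (SE 0.05, limma adjusted p = 0.00021)). Pfkl, the subunit of liver and of neutrophils, was at 34.7 and 32.8 FPKM in the WT libraries against 35.7 and 33.4 FPKM in the Tbx21-KO libraries and was not called (log2 fold change 0.03). With the T cell reference scaling Pfkl was called higher, at 0.44.

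The Pfkm share of the 3 subunits was 5.34% and 5.35% in the WT libraries against 11.3% and 12.4% in the Tbx21-KO libraries, and that of Pfkp 66.2% and 67.7% in the WT libraries against 58.1% and 57.5% in the Tbx21-KO libraries. Pfkp therefore led in every library, by less in Tbx21-KO. Pfkfb3, whose product strongly favours making fructose 2,6-bisphosphate, was at 9.08 and 9.27 FPKM in the WT libraries against 14.3 and 14.6 FPKM in the Tbx21-KO libraries and rose 1.57-fold. Pfkfb4 was at 0.854 and 0.893 FPKM in the WT libraries against 6.13 and 5.88 FPKM in the Tbx21-KO libraries, a 6.88-fold rise with a log2 fold change 1.90 (SE 0.07, limma adjusted p = 8.19e-05), and it passed the minimum through the Tbx21-KO libraries. The 2 PFKFB genes together summed to 9.93 and 10.2 FPKM in the WT libraries against 20.5 and 20.4 FPKM in the Tbx21-KO libraries.

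The trunk of the pathway, from aldolase to pyruvate kinase, held many of the abundant members. Aldoa (ENSMUSG00000030695, GRCm38 chromosome 7, 126795234 to 126800751, minus strand), which encodes the aldolase of most tissues, was at 625 and 639 FPKM in the WT libraries against 674 and 708 FPKM in the Tbx21-KO libraries. Both Tbx21-KO values lay above both WT values, but the gene was not called (log2 fold change 0.13 (SE 0.05, limma adjusted p = 0.0705)). With the T cell reference scaling it was called higher, at 0.54. A second, upstream gene model that also bears the name Aldoa was under 0.5 FPKM in every library and was not used.

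Tpi1, triosephosphate isomerase, was at 373 and 371 FPKM in the WT libraries against 322 and 319 FPKM in the Tbx21-KO libraries and fell to 86.1% of WT (log2 fold change -0.21 (SE 0.04, limma adjusted p = 0.00731)). Eno1 (ENSMUSG00000063524, GRCm38 chromosome 4, 150236721 to 150248879, plus strand), the enolase of most tissues, was at 755 and 776 FPKM in the WT libraries against 646 and 652 FPKM in the Tbx21-KO libraries and fell to 84.8% of WT (log2 fold change -0.24 (SE 0.04, limma adjusted p = 0.00806)). With the T cell reference scaling the log2 fold changes turned to 0.20 and 0.18 and both genes were called higher. The falls on the deposited scale were small differences. Both lost their calls when either Tbx21-KO library was left out.

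Gapdh, glyceraldehyde 3-phosphate dehydrogenase, was at 167 and 184 FPKM in the WT libraries against 152 and 166 FPKM in the Tbx21-KO libraries. The higher Tbx21-KO value all but reached the lower WT value, and the gene was not called (log2 fold change -0.14, adjusted p = 0.169). Pgam1, phosphoglycerate mutase, was at 386 and 399 FPKM in the WT libraries against 380.3 and 377 FPKM in the Tbx21-KO libraries and Pkm, pyruvate kinase, at 594 and 593 FPKM in the WT libraries against 577 and 583 FPKM in the Tbx21-KO libraries. Neither was called (log2 fold changes -0.05 and -0.03), although both Tbx21-KO values lay below both WT values in each. Eno3, the muscle enolase, was at 7.46 and 7.51 FPKM in the WT libraries against 6.82 and 7.58 FPKM in the Tbx21-KO libraries and was not called. With the T cell reference scaling Gapdh, Pgam1, Pkm and Eno3 were all called higher, at 0.28, 0.36, 0.38 and 0.32. Eno2, the neuronal enolase, was at 0.238 and 0.326 FPKM in the WT libraries against 1.61 and 1.56 FPKM in the Tbx21-KO libraries, which corresponds to 28 and 37 reads in WT and 177 and 176 in Tbx21-KO.

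The most abundant trunk genes have processed copies elsewhere in the genome, and reads can be split between them. The table has rows for some: the Eno1 copy Eno1b was at 60.1 and 69.8 FPKM in the WT libraries against 54.3 and 57.4 FPKM in the Tbx21-KO libraries, and the Ldha copy Ldha-ps2 at 4.05 and 4.43 FPKM in the WT libraries against 2.31 and 3.46 FPKM in the Tbx21-KO libraries. The Pgk1 copy Pgk1-rs7 was at 8.55 and 7.199 FPKM in the WT libraries against 8.26 and 8.32 FPKM in the Tbx21-KO libraries, and the Pgam1 copy Pgam1-ps2 at 9.74 and 8.61 FPKM in the WT libraries against 7.95 and 8.05 FPKM in the Tbx21-KO libraries. None of these was called. Single values of Eno1, Ldha and Pgam1 are therefore uncertain by reads shared with such copies. Levels of different genes also depend on the length used: the exons of Gapdh sum to 4133 bases in the annotation, whereas its principal transcript has 1420. Per kilobase of principal transcript Gapdh would be at 509.8 in WT in place of 175, and Eno1 at 2031 in place of 765.

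At the end of the pathway, lactate dehydrogenase turns pyruvate into lactate and restores NAD+. Ldha (ENSMUSG00000063229, GRCm38 chromosome 7, 46841475 to 46855627, plus strand), the subunit that predominates in glycolytic cells, was the most abundant member in WT by FPKM, at 767 and 789 FPKM in the WT libraries against 577 and 599 FPKM in the Tbx21-KO libraries. The gene fell to 75.5% of WT, with a log2 fold change -0.40 (SE 0.04, limma adjusted p = 0.00189), and its rank among all genes went from 32 and 34 in WT to 58 in both Tbx21-KO libraries. With the T cell reference scaling its log2 fold change was 0.01 and it was not called. Ldhb, the subunit of oxidative tissues, was at 2.09 and 2.61 FPKM in the WT libraries against 5.81 and 4.16 FPKM in the Tbx21-KO libraries and rose 2.12-fold (log2 fold change 0.83 (SE 0.16, limma adjusted p = 0.0116)). Ldha still made up 99.7% and 99.7% in the WT libraries against 99.002% and 99.3% in the Tbx21-KO libraries of the 2 subunits.

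Slc16a1 (ENSMUSG00000032902, GRCm38 chromosome 3, 104638668 to 104658462, plus strand) encodes MCT1, which moves lactate and pyruvate across the plasma membrane together with a proton. It was at 30.4 and 28.6 FPKM in the WT libraries against 17.5 and 17.5 FPKM in the Tbx21-KO libraries, with the 2 Tbx21-KO libraries nearly equal and well below both WT libraries. The gene fell to 59.4% of WT, with a log2 fold change -0.72 (SE 0.05, limma adjusted p = 0.000385). With the T cell reference scaling it was at -0.32 (adjusted p = 0.00528). Slc2a1 (adjusted p = 0.00501) and Slc16a1 were the 2 members still called lower by limma with that scaling.

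The pyruvate dehydrogenase kinases hold back the entry of pyruvate into the citric acid cycle by switching off pyruvate dehydrogenase. Pdk1, the hypoxia-inducible kinase, was at 23.8 and 22.03 FPKM in the WT libraries against 19.4 and 20.05 FPKM in the Tbx21-KO libraries and fell to 86.1% of WT (adjusted p = 0.0285 by limma). Pdk3 was at 26.7 and 27.8 FPKM in the WT libraries against 33.4 and 30.4 FPKM in the Tbx21-KO libraries and rose 1.17-fold (adjusted p = 0.0312 by limma). Pdk2 was at 0.9497 and 0.917 FPKM in the WT libraries against 1.38 and 1.697 FPKM in the Tbx21-KO libraries, a 1.65-fold rise with an adjusted p of 0.036 by limma. All 3 calls were fragile, lost or reversed in 6, 5 and 7 other fits, of 15, 15 and 13. The sum of the 3 kinases was 51.5 and 50.7 FPKM in the WT libraries against 54.2 and 52.2 FPKM in the Tbx21-KO libraries.

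**Figure D3:**
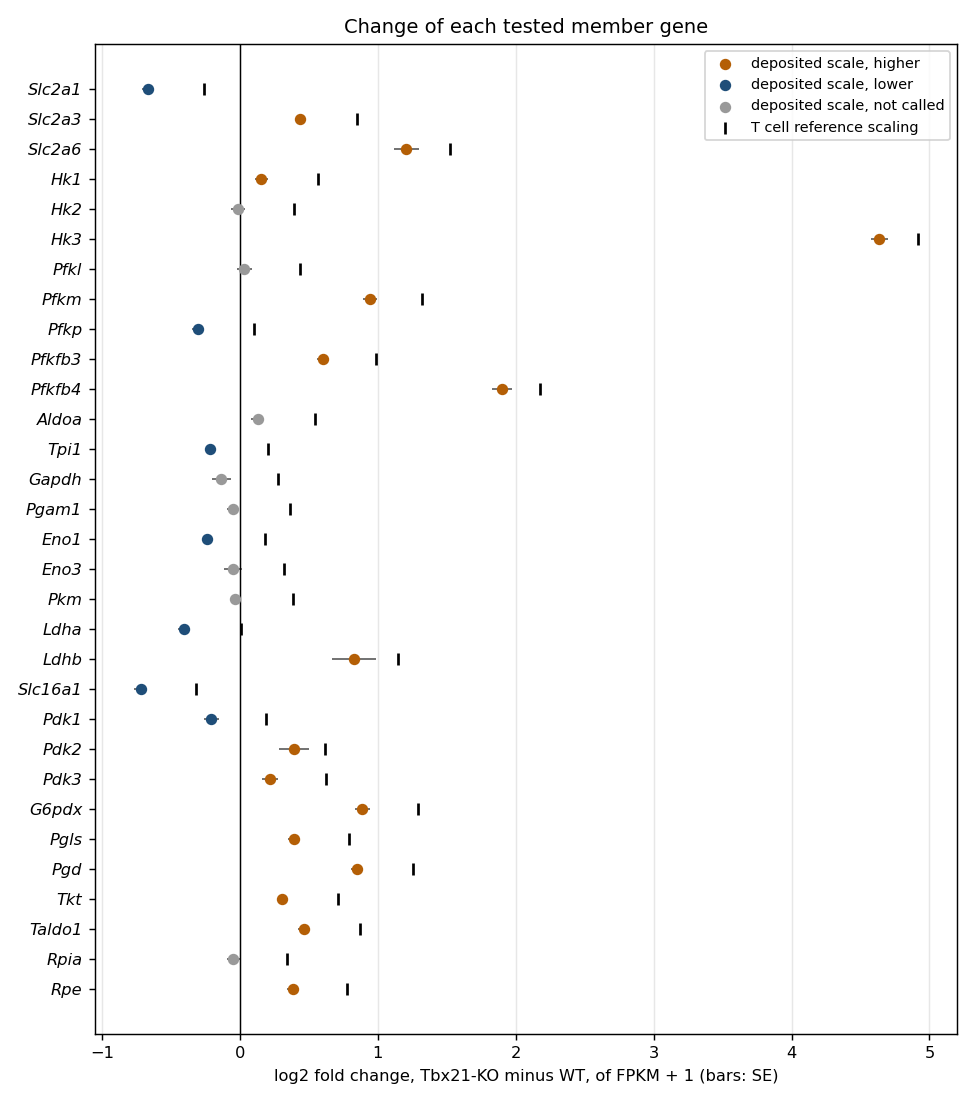
Log2 fold change of FPKM + 1 (Tbx21-KO minus WT) of the 31 tested members, with the limma SE as bars and the colour giving the call; black ticks give the same value with the T cell reference scaling. Slc2a1 and Slc16a1 stay left of 0 on both scales, and 5 called members (Pfkp, Tpi1, Eno1, Ldha and Pdk1) cross 0.

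In the oxidative arm of the pentose phosphate branch all 3 genes were higher, beside 30.1% of all genes tested. G6pdx (ENSMUSG00000031400, GRCm38 chromosome X, 74409483 to 74429194, minus strand) encodes glucose 6-phosphate dehydrogenase, the enzyme that commits glucose to the branch and makes its first NADPH. It was at 23.3 and 21.5 FPKM in the WT libraries against 42.6 and 41.8 FPKM in the Tbx21-KO libraries, and both Tbx21-KO values were far above both WT values. It rose 1.89-fold, with a log2 fold change 0.89 (SE 0.05, limma adjusted p = 0.000287). Pgd (ENSMUSG00000028961, GRCm38 chromosome 4, 149149991 to 149166771, minus strand), which encodes the enzyme of the second NADPH-producing step, was at 33.4 and 32.6 FPKM in the WT libraries against 61.8 and 58.8 FPKM in the Tbx21-KO libraries. It rose 1.83-fold, with a log2 fold change 0.85 (SE 0.04, limma adjusted p = 0.000194). Pgls, the lactonase between the 2 steps, was at 20.7 and 21.04 FPKM in the WT libraries against 27.2 and 28.2 FPKM in the Tbx21-KO libraries and rose 1.33-fold (log2 fold change 0.39).

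In the non-oxidative arm, 3 of 4 genes rose, by less than G6pdx and Pgd, beside 30.1% of all genes tested. Taldo1 (ENSMUSG00000025503, GRCm38 chromosome 7, 141392199 to 141402968, plus strand), transaldolase, was at 74.9 and 72.7 FPKM in the WT libraries against 99.3 and 105 FPKM in the Tbx21-KO libraries and rose 1.38-fold (log2 fold change 0.46 (SE 0.04, limma adjusted p = 0.00119)). Tkt, transketolase, was at 77.5 and 77.7 FPKM in the WT libraries against 96.2 and 95.6 FPKM in the Tbx21-KO libraries and rose 1.24-fold (log2 fold change 0.30 (SE 0.03, limma adjusted p = 0.00206)). Rpe, ribulose-phosphate epimerase, was at 15.3 and 15.6 FPKM in the WT libraries against 20.1 and 20.8 FPKM in the Tbx21-KO libraries and rose 1.32-fold. The exception was Rpia, ribose 5-phosphate isomerase, at 13.8 and 13.8 FPKM in the WT libraries against 13.6 and 13.01 FPKM in the Tbx21-KO libraries, which was not called (log2 fold change -0.05, adjusted p = 0.426 by limma).

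The 7 pentose phosphate genes summed to 259 and 255 FPKM in the WT libraries against 361 and 363 FPKM in the Tbx21-KO libraries, and the 25 genes of glycolysis and its carriers to 4119 and 4193 FPKM in the WT libraries against 3816 and 3876 FPKM in the Tbx21-KO libraries. Both Tbx21-KO libraries thus had more pentose phosphate and less glycolytic transcript than either WT library on the deposited scale. The T cell reference factors were 1.14 and 1.17 in the WT libraries and 0.864 and 0.867 in the Tbx21-KO libraries. Dividing by them reverses the order of the glycolytic sums. On the deposited scale the median log2 fold change was 0.39 over the 7 and 0.01 over the 24 tested genes of glycolysis and its carriers, against 0.04 over all genes tested. With the T cell reference scaling these medians were 0.79, 0.41 and 0.40. Of the 24 genes 20 were then higher and 2 lower, beside 68.6% and 5.58% of all genes. The 6 rises of the branch were called in all 15 other fits, and with the T cell reference scaling all 7 genes were higher. These rises were found in the libraries with high granulocyte marker transcripts, whose source and part in the rises were not tested.

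Of 13 tested genes in a list of other pentose phosphate and NADPH genes, 7 rose and 3 fell, beside 30.1% and 23.0% of all genes tested. The list also holds genes whose products make no NADPH. Me1, the cytosolic malic enzyme, was at 3.27 and 3.16 FPKM in the WT libraries against 19.97 and 20.03 FPKM in the Tbx21-KO libraries and rose 6.23-fold. The isocitrate dehydrogenases Idh2 and Idh1, mitochondrial and cytosolic, rose 3.85-fold and 3.95-fold, to 23.7 and 16.01 FPKM. The genes that fell, named after their values were seen, were Rbks, Me2, the mitochondrial malic enzyme, and Txnrd1, thioredoxin reductase, with log2 fold changes of -0.51, -0.42 and -0.31. On the T cell reference scale 10 genes of the list were higher and none lower, beside 68.6% and 5.58% of all genes.

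The serine branch, which leaves glycolysis at 3-phosphoglycerate and feeds one-carbon units to nucleotide synthesis, went the other way. Of 8 tested genes 7 fell and none rose, with a median of -0.63, where 23.0% of all genes tested fell. Shmt2, the mitochondrial serine hydroxymethyltransferase, was at 165 and 160.4 FPKM in the WT libraries against 73.9 and 73.3 FPKM in the Tbx21-KO libraries and fell to 45.2% of WT (log2 fold change -1.13 (SE 0.04, limma adjusted p = 5.32e-05)). Psat1 and Phgdh, enzymes of serine synthesis, fell to 52.8% and 55.4%. Phgdh, the first enzyme of the branch, was at 168 and 169.8 FPKM in the WT libraries against 91.7 and 95.2 FPKM in the Tbx21-KO libraries. After the T cell reference scaling 6 members of the serine list were lower and 1 higher, where 5.58% of all genes were lower.

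Glycogen genes were mostly higher: of 14 tested genes in the list of glycogen and nucleotide sugar enzymes 9 rose and 1 fell. Of all genes tested 30.1% rose and 23.0% fell. Pygl, the liver-type glycogen phosphorylase that myeloid cells also use, was at 3.25 and 3.22 FPKM in the WT libraries against 43.2 and 40.5 FPKM in the Tbx21-KO libraries and rose 12.9-fold. Gyg, glycogenin, rose 1.85-fold to 64.3 FPKM, and Pygm, the muscle-type phosphorylase, 1.85-fold to 3.23 FPKM. The gene that fell, named after its value was seen, was Gbe1, the branching enzyme, with a log2 fold change of -0.51. With the T cell reference scaling 13 genes were higher and none lower, beside 68.6% and 5.58% of all genes. Of 11 tested genes of other sugar entry, glycolysis and gluconeogenesis 6 rose and 1 fell. Among the 6, Fbp1 and Galm were under 1 FPKM in WT and passed the minimum through the Tbx21-KO libraries, so they had to be higher, and of the other 9 tested genes 4 rose. Fbp1, which reverses the phosphofructokinase step, was at 0.188 and 0.0974 FPKM in the WT libraries against 3.47 and 2.71 FPKM in the Tbx21-KO libraries. Galm, galactose mutarotase, was at 0.841 and 0.887 FPKM in the WT libraries against 4.67 and 4.79 FPKM in the Tbx21-KO libraries. Adpgk, a glucokinase that uses ADP, was at 5.54 and 5.72 FPKM in the WT libraries against 12.7 and 11.8 FPKM in the Tbx21-KO libraries, and the gene that fell, named after its value was seen, was Pck2 (log2 fold change -0.51). Under the T cell reference scaling 9 genes of this list were higher and none lower, beside the same shares of all genes as above.

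The genes of pyruvate entry into mitochondria were mostly not called on the deposited scale. With the T cell reference scaling 7 of 8 were higher, as were 68.6% of all genes. Of 8 tested genes 1 rose, Mpc1, a subunit of the mitochondrial pyruvate carrier, which was at 1.73 and 2.39 FPKM in the WT libraries against 4.05 and 3.42 FPKM in the Tbx21-KO libraries. The 7 others were not called, among them the pyruvate dehydrogenase subunits Pdha1 and Pdhb, which were picked with their values known (log2 fold changes 0.04 and -0.04). Of 10 tested genes of the NADH shuttles and lactate carrier chaperones 3 rose and 1 fell. Of all genes tested 30.1% rose and 23.0% fell. Emb, embigin, a chaperone of lactate carriers, was at 42.3 and 40.8 FPKM in the WT libraries against 91.9 and 91.4 FPKM in the Tbx21-KO libraries and rose 2.21-fold. Slc25a13 fell to 64.98% of WT, and its relative Slc25a12, both of them aspartate-glutamate carriers, rose 1.26-fold. Bsg, basigin, the chaperone of MCT1, named after its value was seen, was at 279 and 277 FPKM in the WT libraries against 329 and 332 FPKM in the Tbx21-KO libraries and rose 1.19-fold while Slc16a1 fell. Under the T cell reference scaling 8 of these 10 genes were higher and none lower, beside 68.6% and 5.58% of all genes.

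**Figure D4:**
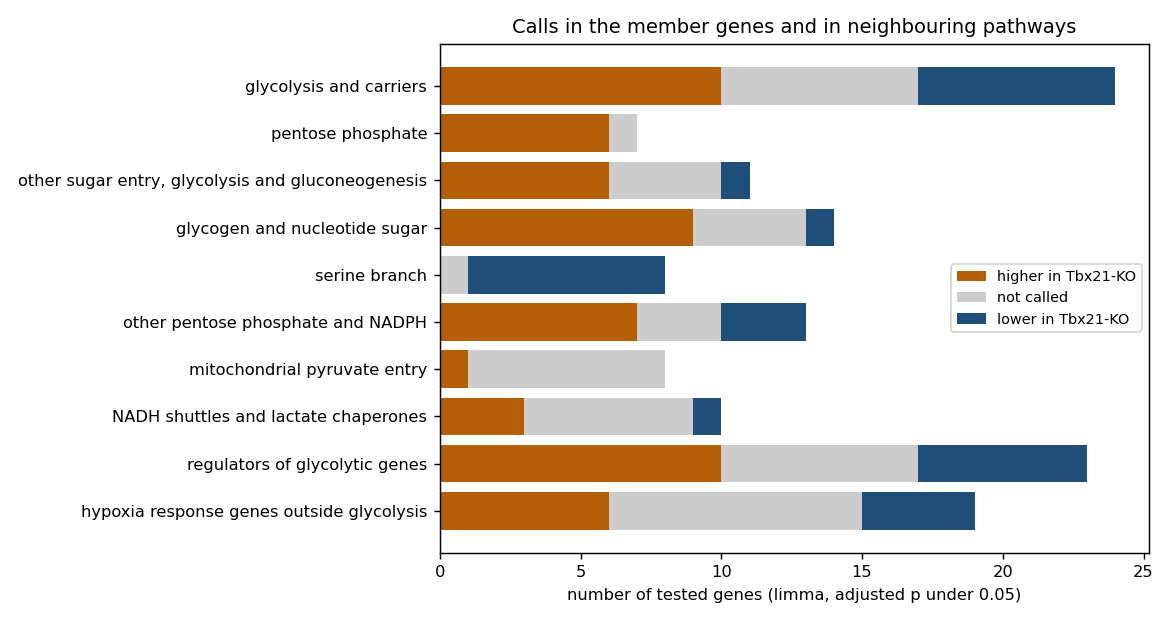
Number of tested genes called higher (orange), lower (blue) or not called (grey) by limma in Tbx21-KO for the 2 parts of the pathway followed here and for 8 lists of neighbouring pathways. The pentose phosphate bar holds 6 higher and no lower genes and the serine branch 7 lower and no higher ones. Glycolysis and its carriers hold 10 higher and 7 lower. Of all genes tested 30.1% were higher and 23.0% lower.

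Regulators of glycolytic genes moved both ways, 10 of 23 tested genes being higher and 6 lower, beside 30.1% and 23.0% of all genes tested. With the T cell reference scaling 17 were higher and 1 lower, beside 68.6% and 5.58% of all genes. Hif1a, the oxygen-regulated subunit of hypoxia-inducible factor, was at 65.98 and 61.4 FPKM in the WT libraries against 142 and 141 FPKM in the Tbx21-KO libraries and rose 2.23-fold (log2 fold change 1.14 (SE 0.05, limma adjusted p = 0.000103)). Mxi1, a Myc antagonist, was at 5.27 and 5.001 FPKM in the WT libraries against 15.7 and 15.2 FPKM in the Tbx21-KO libraries and rose 3.01-fold. Epas1, a relative of Hif1a, rose 2.66-fold to 6.79 FPKM. Myc, named after its value was seen, was at 54.99 and 55.6 FPKM in the WT libraries against 65.7 and 65.4 FPKM in the Tbx21-KO libraries and rose 1.18-fold.

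Of 19 tested hypoxia response genes outside glycolysis 6 were higher and 4 lower, with a median log2 fold change of 0.03. These shares, 31.6% and 21.1%, were near the 30.1% and 23.0% of all genes tested. Ddit4, an inhibitor of mTOR complex 1, was at 40.8 and 43.4 FPKM in the WT libraries against 92.9 and 84.7 FPKM in the Tbx21-KO libraries and rose 2.11-fold. Car9, a carbonic anhydrase, rose 2.68-fold to 3.22 FPKM, and Vegfa, the vascular growth factor, 1.74-fold to 25.5 FPKM. Bnip3 and P4ha1 of that list, picked with their values known, had log2 fold changes of 0.05 and 0.11 and were not called. After the T cell reference scaling 15 of the 19 were higher and 1 lower, beside 68.6% and 5.58% of all genes.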

How the data were processed

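RNA of 4 libraries was sequenced after column extraction and mRNA library preparation, per the labels' protocols. The deposited table gives FPKM values that the authors computed per gene and library. The submitters' processing notes name GRCm38 and mm10, with aligner, counter, annotation and strand setting not given in the sources used here. A truncated row at the end of the table was dropped (24768 genes kept). Ensembl IDs were matched to GENCODE M21 (24720 matched). Reads behind FPKM values were recovered with summed exon lengths: of values under 20 reads, 96.8% to 97.3% per library were whole within 0.1 read. Library pairs differed by more than counting noise (median chi-square per gene 1.31 in WT and 1.21 in Tbx21-KO, against 0.455 from counting alone), so each was kept as a replicate. No label ties them to separate cultures or animals, and the p-values then reflect library spread alone, possibly technical.

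Log2(FPKM + 1), with a pseudocount of 1, was tested in genes with a mean of at least 1 FPKM by limma 3.58.1 (R 4.3.3) with an intensity trend, two-sided, with Benjamini-Hochberg adjustment over 11013 genes. A single-gene exact permutation test cannot go below 0.33 with 2 against 2 libraries and was not used. On simulated data for this comparison (10447 genes tested, changes placed in genes of over 200 reads) the fit recovered 42.0%, 80.0%, 90.0% and 100.0% of 50 changes each of 1.25-, 1.5-, 2- and 4-fold, beside 16 false calls. The simulation gave all genes the same spread setting and changed few genes, as many up as down. It therefore gives no error rate for the real comparison, in which 53.1% of genes were called. Members and lists were chosen with earlier results of these data known. All members are named. Of each neighbouring list the 3 called genes of largest change are named, and others are marked as named after their values were seen. Alternatives were other pseudocounts, filters, scalings, a fit without trend, a replicate block, each library left out, and voom on recovered reads. A symbol on 2 rows (Aldoa) was read from the row with the larger sum.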

Additional observations from a re-analysis of the deposited data

How the results depend on the processing

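Of the 23 called members, the calls of 14 held in every alternative run in which they were tested: Slc2a1, Slc2a3, Slc2a6, Hk3, Pfkm, Pfkfb3, Pfkfb4, Slc16a1, G6pdx, Pgls, Pgd, Tkt, Taldo1 and Rpe. Scaling mattered most. With the T cell reference scaling 27 members were higher and 2 lower, beside 7553 and 615 of all genes, and the sign turned for Pfkp (0.10), Tpi1 (0.20), Eno1 (0.18), Ldha (0.011) and Pdk1 (0.19), and for the uncalled Hk2 (0.39), Gapdh (0.28), Pgam1 (0.36), Eno3 (0.32), Pkm (0.38) and Rpia (0.34). With median-of-ratios scaling 11 members were lower, in place of 7, and the uncalled Pfkl turned to -0.077. After quantile normalization 3801 of all genes were lower, and at a mean of at least 5 FPKM 2018 were higher. Each library left out in turn gave 14 members higher, and 4 to 7 lower. Of all genes it gave 2391 to 3036 higher and 1726 to 2225 lower. Leaving out Tbx21-KO 1 or Tbx21-KO 2 each gave 4 lower, the calls of Tpi1, Eno1 and Pdk1 being lost. In these fits the lone library is assumed to vary like the other group. The sign of uncalled members turned for Hk2, which ran from -0.055 to 0.0295, for Pfkl, from -0.013 to 0.079, and for Eno3, from -0.117 to 0.017. With no filter 6 calls were lost (Hk1, Eno1, Ldhb, Pdk1, Pdk2 and Pdk3); more genes are tested there. The cause of the other changes was not tested. The replicate numbers give no pairing (correlation of the deviations of WT 1 and Tbx21-KO 1 across genes -0.025). With the replicate block 16 members were higher and 8 lower, with 3245 and 2482 of all genes, Pdk2 losing its call and Aldoa and Gapdh gaining one. Depth limits the low members: Hk3, Pfkfb4, Pdk2 and Eno2 rest on 28 to 105 reads per WT library.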
